A study of Mus musculus with 6 samples.

Results

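Imprinted growth genes of the embryo were followed in embryonic pancreas at day 12.5, in RNA from embryos lacking Sox4 and from wild-type littermates. The set named 9 genes, Igf2, H19, Dlk1, Mest, Peg3, Grb10, Cdkn1c, Gnas and Plagl1, and its members were the probes whose single symbol in the platform annotation was one of these. That gave 12 of the 21888 probes on the array, for 6 of the genes: 3 each for Grb10 and Cdkn1c, 2 each for Dlk1 and Gnas, and 1 each for H19 and Peg3. No probe of Igf2, Mest or Plagl1 was found by this rule, so those 3 genes were not analysed here. All 12 probes were among the 21247 tested, which had a value on at least 4 arrays. Where a gene had several probes they are given apart, and they are repeated measurements of 1 gene on the same arrays.

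The knockout RNA came from homozygous Sox4 mutants (Sox4-/-, the allele of an earlier knockout study named in the labels), and the wild-type RNA from littermates with both copies of Sox4. No source used here gives strain or sex, and the labels name no other allele or agent. Each of 6 spotted arrays carried both RNAs, knockout in channel 2 and wild type in channel 1, and the deposited value is a log2 ratio of the channels for each probe. Knockout over wild type is its likely direction, taken from channel order and titles, since no source used here gives the dyes. The label of arrays 1 and 2 says that pancreases were pooled by genotype before RNA was isolated. The arrays may therefore repeat 1 pool of each genotype, and p-values measure only the spread among arrays, which can be technical. A bias between the channels cannot be told apart from a difference in RNA. A ratio does not give a level, so neither the abundance of these RNAs nor the tissue label could be checked against marker levels, and fewer cells of a type cannot be told apart from less RNA per cell. Precision is limited by the number of arrays.

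The medians of the deposited ratios lay between -0.007 and 0.198 on the 6 arrays, and each array was centred on its median. Rank correlations across probes were 0.52 between arrays 1 and 2 and 0.44 to 0.58 among arrays 3 to 6, but 0.05 to 0.32 between these sets, so values are also given for each set. In the labels, arrays 1 and 2 carry the protocol and the others do not; whether the sets were separate hybridisation rounds is not stated. Sox4 itself does not check the labels or the direction: its probes were at -0.03 ± 0.25 and -0.09 ± 0.13 (SD, n = 6 arrays), neither past the threshold, and no source used here places them relative to the deleted part.

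An imprinted gene is read mainly or only from the copy inherited from one parent, because the other copy is silenced by marks such as DNA methylation laid down in the egg or sperm. Many genes read from the father's copy promote growth of the embryo (Igf2, Dlk1, Mest, Peg3 and Plagl1 are read from it), while many read from the mother's copy restrain it (H19, Cdkn1c and, in most tissues, Grb10). Gnas is a compound locus with transcripts from the father's copy, the mother's copy or both. In the developing pancreas Igf2 is a growth factor of the tissue, Cdkn1c is a brake on the proliferation of progenitors, and Dlk1 marks immature cells. The ratios sum both parental copies, so they say nothing of imprinting itself.

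The promoter windows of Grb10 and Gnas are printed because Grb10 held the 1 probe past the threshold and had probes that disagreed, and because Gnas was the measured member whose windows held a Sox-type motif. They were taken from RefSeq (GRCm38.p6) as the 250 bases before a listed transcript start. Capitals mark CpG dinucleotides, the sites of DNA methylation, in the Grb10 windows, and the motif in the Gnas window.
Grb10 upstream start, chr11:12037421-12037670, minus strand: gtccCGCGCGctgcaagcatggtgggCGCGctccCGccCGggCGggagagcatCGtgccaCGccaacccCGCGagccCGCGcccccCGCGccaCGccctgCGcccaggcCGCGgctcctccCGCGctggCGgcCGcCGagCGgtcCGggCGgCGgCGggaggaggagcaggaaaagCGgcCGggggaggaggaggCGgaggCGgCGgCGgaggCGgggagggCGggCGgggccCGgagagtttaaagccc
Grb10 downstream start, chr11:12027972-12028221, minus strand: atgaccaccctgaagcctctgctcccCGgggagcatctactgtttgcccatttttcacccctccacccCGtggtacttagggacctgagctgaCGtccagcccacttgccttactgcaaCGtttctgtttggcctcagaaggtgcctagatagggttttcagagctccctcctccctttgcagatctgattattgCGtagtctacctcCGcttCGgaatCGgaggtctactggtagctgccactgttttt
Gnas, chr2:174327499-174327748, plus strand: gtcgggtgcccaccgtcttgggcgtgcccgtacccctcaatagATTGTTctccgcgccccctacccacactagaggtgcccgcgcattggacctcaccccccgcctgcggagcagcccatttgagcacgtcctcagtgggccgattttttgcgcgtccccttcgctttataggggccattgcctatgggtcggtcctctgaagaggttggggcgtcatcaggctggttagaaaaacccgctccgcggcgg

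The Grb10 windows differed in base composition. The window of the upstream start held 40 CpG and 81.2% G or C, and 98.7% of the 32851 windows in the table held fewer CpG. The window of the downstream start held 8 CpG and 54.0% G or C, close to the middle of the table, where 57.0% of windows held fewer. As background, Grb10 is read from the mother's copy in most tissues and from the father's copy in neurons, from different promoters. Which of the starts each array probe reports could not be read from the files used here.

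Motifs of Sox proteins, which bind short A- and T-rich sites through an HMG box, were searched on both strands in all 16 windows that RefSeq listed for 7 of the 9 genes. The letters ACAAAG were in none of these 16 windows, against 16.5% of all windows of this length in the table. The letters ACAAT were in 4 of 16 windows, those of Gnas and Igf2, against 27.7% of all windows. The longer form AACAAT, which contains ACAAT, was in 3 of them, against 9.42% of all windows, and in the Gnas window above it lies on the reverse strand, 207 bases before the start. Overlapping windows of Gnas share this match. A match is a description of the letters and not a bound site.

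Among the 12 probes, 1 was past an adjusted p of 0.05, a Grb10 probe under 0, against 5.49% of all tested probes in either direction, 3.53% under 0 and 1.96% above 0 (limma, Benjamini-Hochberg adjustment over all 21247 probes). With 12 probes, 1 call is close to that background. At an unadjusted limma p under 0.05 there were 5 of 12 probes, those of H19, one each of Cdkn1c and Gnas, and 2 of Grb10, where all tested probes gave 27.6%. Means were above 0 for 8 probes and under 0 for 4. Their median was 0.09, and that of all tested probes was 0.03. Every measured array lay on one side of 0 for 2 of the 12 probes, H19 and the called Grb10 probe, against 22.4% of all tested probes.

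**Figure D1:**
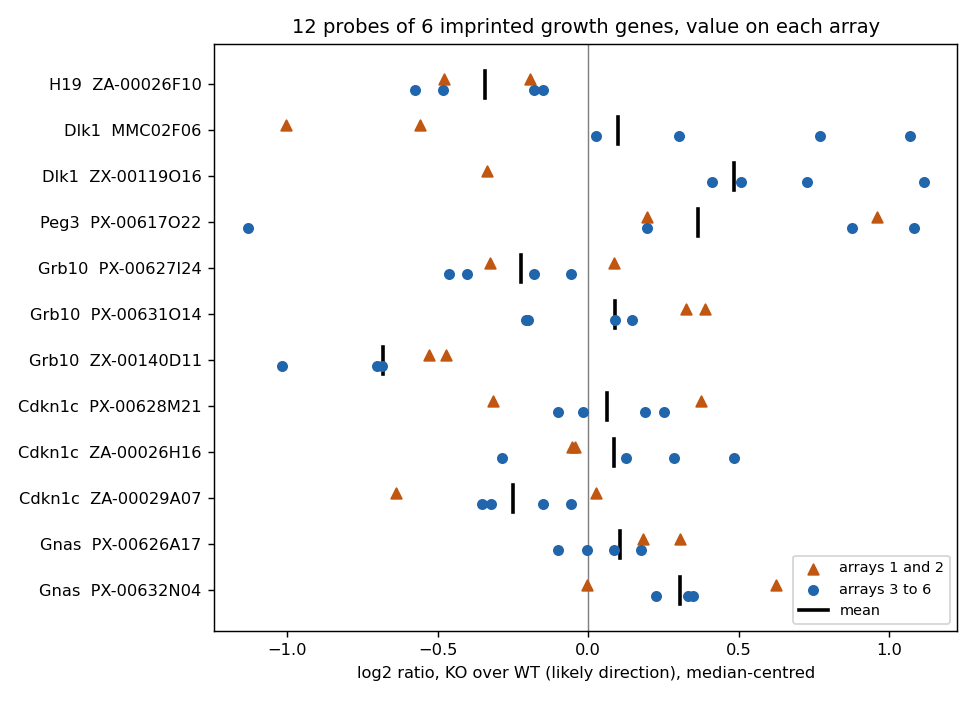
Log2 ratio, knockout over wild type in its likely direction, of each of 12 probes (rows, named by gene and probe) on each array, with triangles for arrays 1 and 2, circles for arrays 3 to 6 and a bar for the mean. H19 and the Grb10 probe ZX-00140D11 have all measured arrays under 0, and both Dlk1 probes have arrays 1 and 2 under 0 where measured and arrays 3 to 6 above 0.

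**Figure D2:**
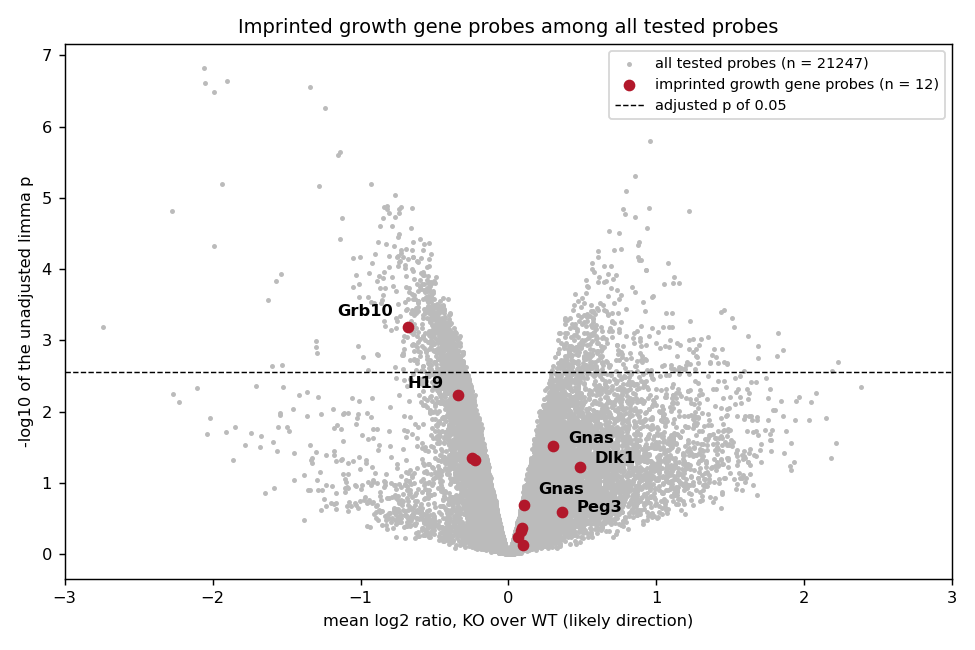
Mean log2 ratio (horizontal axis) against -log10 of the unadjusted limma p (vertical axis) for 21247 tested probes in grey and 12 imprinted growth gene probes in red, with a dashed line at an adjusted p of 0.05. Only the Grb10 probe ZX-00140D11 lies above the line, and H19 lies just below it.

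Grb10, an adaptor protein that binds the insulin and IGF receptors and dampens their signal, gave 3 different readings at its 3 probes. Probe ZX-00140D11 had values of -0.53, -0.47, -1.02, -0.70 and -0.69 on arrays 1, 2, 3, 5 and 6, with no value on array 4. All 5 were under 0, with array 3 the furthest from 0. Its mean was -0.68 ± 0.21 (SD, n = 5 arrays; limma adjusted p 0.0344), a ratio 1.60-fold lower in the RNA labelled knockout, and 8.51% of all tested probes had a mean at least this far from 0. The call was kept when array 2 was left out (adjusted p 0.0421) and lost without array 1, 3, 4, 5 or 6 (adjusted p 0.0699, 0.0733, 0.0735, 0.103 and 0.102). No value of this probe came from array 4, so its mean without that array stayed at -0.68. The unadjusted limma p was then 0.000668, against 0.000643 with all arrays. What changed was the adjustment over all probes, of which 11 passed without array 4, against 1166. Within the array sets its mean was -0.50 on arrays 1 and 2 and -0.80 on arrays 3 to 6, neither past the threshold in its own set (adjusted p 0.351 and 0.0795). With the set as a random block the adjusted p was 0.112. The unadjusted limma p in these 3 settings was 0.0466, 0.00342 and 0.0015. Few probes of any gene passed there, 0 of 20831, 11 of 21506 and 13 of 21247, against 1166 of 21247 as reported. The random block allows arrays of a set to be correlated (estimated at 0.205), and the call of this probe was not kept with it.

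The other Grb10 probes did not pass. Probe PX-00627I24 had values of 0.08, -0.33, -0.18, -0.06, -0.46 and -0.40 on arrays 1 to 6, under 0 on all but array 1, with a mean of -0.22 ± 0.21 (n = 6; limma adjusted p 0.177). Probe PX-00631O14 had values of 0.33, 0.39, 0.15, 0.09, -0.21 and -0.20, above 0 on arrays 1 to 4 and under 0 on arrays 5 and 6, with a mean of 0.09 ± 0.25 (adjusted p 0.608). The 3 probes kept the same order on every array that measured them. ZX-00140D11 lay under PX-00631O14 by 0.49 to 1.17 on 5 of 5 arrays, a mean difference of -0.77 ± 0.29 (exact sign permutation test, two-sided p = 0.0625, the smallest that 5 arrays allow), and PX-00627I24 lay under PX-00631O14 on 6 of 6 arrays, by -0.31 ± 0.20 (exact p = 0.0312, the smallest that 6 arrays allow). Of 8 pairs of probes of 1 gene that were compared, 4 had every shared array on one side, all 3 pairs of Grb10 among them. After adjustment over the 8 pairs the smallest p was 0.125, but with 5 or 6 arrays no adjusted p under 0.0625 was possible, so the adjusted values cannot show whether probes differ. As 1 value per gene, the mean over its probes, Grb10 was at -0.23 with an SE of 0.09 and did not pass (limma adjusted p 0.156 over genes). The 6 probes in the wells up to 3 away from ZX-00140D11 on its source plate, per the probe names, had means of -0.19 to -8.3e-05, none past the threshold. For H19, described next, the 6 neighbouring wells had means of -0.48 to 0.87, with 1 past it.

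H19, a long noncoding RNA from the mother's copy next to Igf2 that restrains growth, had a ratio under 0 on every array and did not pass the threshold. Its probe ZA-00026F10 had values of -0.19, -0.48, -0.18, -0.15, -0.58 and -0.48 on arrays 1 to 6. Arrays 2, 5 and 6 lay further from 0 than arrays 1, 3 and 4, and every measured array being under 0 held for 12.3% of all tested probes. The mean was -0.34 ± 0.19 (SD, n = 6; limma adjusted p 0.0669), a ratio 1.27-fold lower. It was at -0.34 on arrays 1 and 2 and at -0.35 on arrays 3 to 6, and the difference between the sets was -0.01 with an SE of 0.19. The probe lay near the threshold: over 15 other ways of processing its adjusted p ran between 0.044 and 0.529, under 0.05 in 4 of them, and it did not pass when any 1 array was left out (0.0936 to 0.166).

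**Figure D3:**
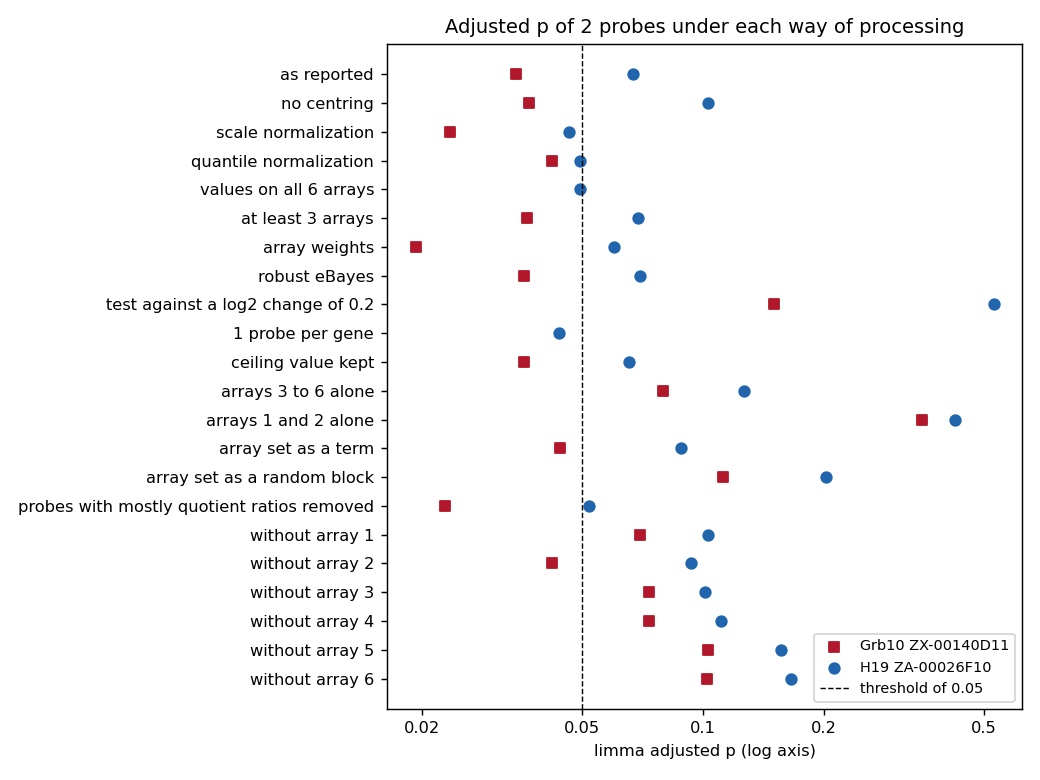
Limma adjusted p (log axis) of the Grb10 probe ZX-00140D11 (squares) and of H19 (circles) as reported and under each other way of processing, with a dashed line at 0.05. Grb10 lies left of the line in 9 of 13 other settings and, when 1 array is left out, only without array 2; a setting that dropped a probe has no square.

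Dlk1, a membrane protein with EGF-like repeats that holds back differentiation, differed between the array sets. Probe MMC02F06 had values of -0.56 and -1.01 on arrays 1 and 2, and of 1.07, 0.30, 0.77 and 0.027 on arrays 3 to 6. The sets did not overlap: both of the first were under 0 and all 4 of the others above it. The mean over 6 arrays was 0.10 ± 0.79 (limma adjusted p 0.84), made up of -0.78 on arrays 1 and 2 and 0.54 on arrays 3 to 6, and it was -0.09 without array 3 and -0.03 without array 5. Probe ZX-00119O16 had no value on array 1, -0.34 on array 2, and 1.12, 0.41, 0.73 and 0.51 on arrays 3 to 6, with a mean of 0.49 ± 0.53 (n = 5; adjusted p 0.197). Both probes thus had the same sign on each array that measured both.

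The difference between the sets, arrays 3 to 6 minus arrays 1 and 2, was 1.33 with an SE of 0.33 for MMC02F06 (unadjusted limma p 0.00773) and 1.03 with an SE of 0.32 for ZX-00119O16 (unadjusted p 0.025). After adjustment neither passed (limma adjusted p 0.307 and 0.316), and 0 of 21230 probes did, while 15.4% of them were at an unadjusted p under 0.05. Among the 12 member probes these 2 were the ones at an unadjusted p under 0.05. Of the values behind the means, 16.7% of 6 at MMC02F06 and 40.0% of 5 at ZX-00119O16 matched quotients of whole numbers up to 20. Ratios of small intensities can take this form, but a value can also match by chance, and that rate was not measured. Among the other member probes the share ran from 0.0% to 33.3%, so that of MMC02F06 was within their range. The part of such ratios in the result was not tested.

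Cdkn1c, an inhibitor of cyclin-dependent kinases that takes progenitors out of the cell cycle, was close to 0 as a gene (-0.03 with an SE of 0.09, limma adjusted p 0.835 over genes). Probe ZA-00029A07 had values of 0.025, -0.64, -0.06, -0.15, -0.35 and -0.33 on arrays 1 to 6, with a mean of -0.25 ± 0.24 (n = 6; adjusted p 0.17). Probe PX-00628M21 had 0.37, -0.32, 0.25, 0.19, -0.10 and -0.02, with a mean of 0.06 ± 0.25 (adjusted p 0.724). These probes moved up and down together and stayed apart by 0.25 to 0.35 on each of 6 arrays, a mean difference of -0.31 ± 0.03 (exact sign permutation test, two-sided p = 0.0312, the smallest that 6 arrays allow). The spread of each probe over the arrays was thus several times the spread of their difference. Probe ZA-00026H16 had -0.05, -0.05, 0.12, 0.29, -0.29 and 0.49, with a mean of 0.08 ± 0.27 (adjusted p 0.651), and its arrays lay on both sides of 0.

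Gnas, whose main product is the stimulatory G protein subunit that couples receptors to cAMP, had means above 0 at both probes, neither past the threshold. Probe PX-00632N04 had values of 0.62, -0.0035, 0.22, 0.33 and 0.35 on arrays 1, 2, 3, 4 and 6, with a mean of 0.30 ± 0.23 (n = 5; limma adjusted p 0.142), and array 2 was the one not above 0. Probe PX-00626A17 had 0.30, 0.18, 0.09, -0.004, 0.18 and -0.10, with a mean of 0.11 ± 0.15 (n = 6; adjusted p 0.392). As 1 value per gene, Gnas was at 0.19 with an SE of 0.07 (limma adjusted p 0.144 over genes). Which of the transcripts of this locus the probes report could not be read from the files used here.

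Peg3, a zinc finger protein from the father's copy, had the widest spread of the 12 probes. Probe PX-00617O22 had values of 0.96, 0.19, 1.08, 0.88, -1.13 and 0.19 on arrays 1 to 6. Array 5 was the only one under 0, and arrays 1, 3 and 4 were the highest. The mean was 0.36 ± 0.83 (n = 6; limma adjusted p 0.452), and without array 5 it was 0.66 (adjusted p 0.121).

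The members sit in clusters of imprinted genes, and neighbours measured on the same arrays were set beside them. After Dlk1 on chromosome 12 come Meg3, Rian and Mirg, noncoding RNAs read from the mother's copy while Dlk1 is read from the father's. Meg3 had 9 probes with means from -0.44 to 0.93, 5 under 0 and 4 above, and 1 past the threshold at -0.44 ± 0.22 (ZX-00143C22, limma adjusted p 0.0497). The Rian probe had values of 0.05, 0.14, -0.48, -0.25, -0.54 and -0.43 on arrays 1 to 6, above 0 on arrays 1 and 2 and under 0 on arrays 3 to 6, with a mean of -0.25 ± 0.29 (adjusted p 0.21). The Mirg probe was under 0 on all 6 arrays, at -0.39 ± 0.21 (adjusted p 0.0582). The set difference of Rian was -0.52 (unadjusted limma p 0.00999, adjusted p 0.307), and so of opposite sign to that of Dlk1. For this difference 15.4% of all tested probes had an unadjusted limma p under 0.05. That of Mirg was -0.355, and those of the 9 Meg3 probes ran from -0.87 to 0.155, on both sides of 0.

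On chromosome 7, H19 and Cdkn1c are the measured members of a region that also holds Ins2, Ascl2, Slc22a18, Nap1l4 and Osbpl5. Osbpl5, a lipid-binding protein, was under 0 on all 6 arrays, from -0.53 to -0.28, and passed at -0.39 ± 0.11 (limma adjusted p 0.0362). Nap1l4, a histone chaperone, was at -0.37 ± 0.25 (adjusted p 0.0818). Ins2, an insulin gene that is imprinted in the yolk sac, passed above 0 at 2 of 3 probes, at 0.52 ± 0.22 and 0.54 ± 0.23. Slc22a18 was at 0.55 ± 0.67 and Ascl2 at -0.03 ± 0.49, neither past the threshold, so genes of this region lay on both sides of 0. Taking the 2 nearest measured genes on each side of each of the 6 members in the RefSeq order, 2 of 24 had a probe past the threshold, Ins2 and Meg3, against 8.21% of all 10818 genes tested.

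**Figure D4:**
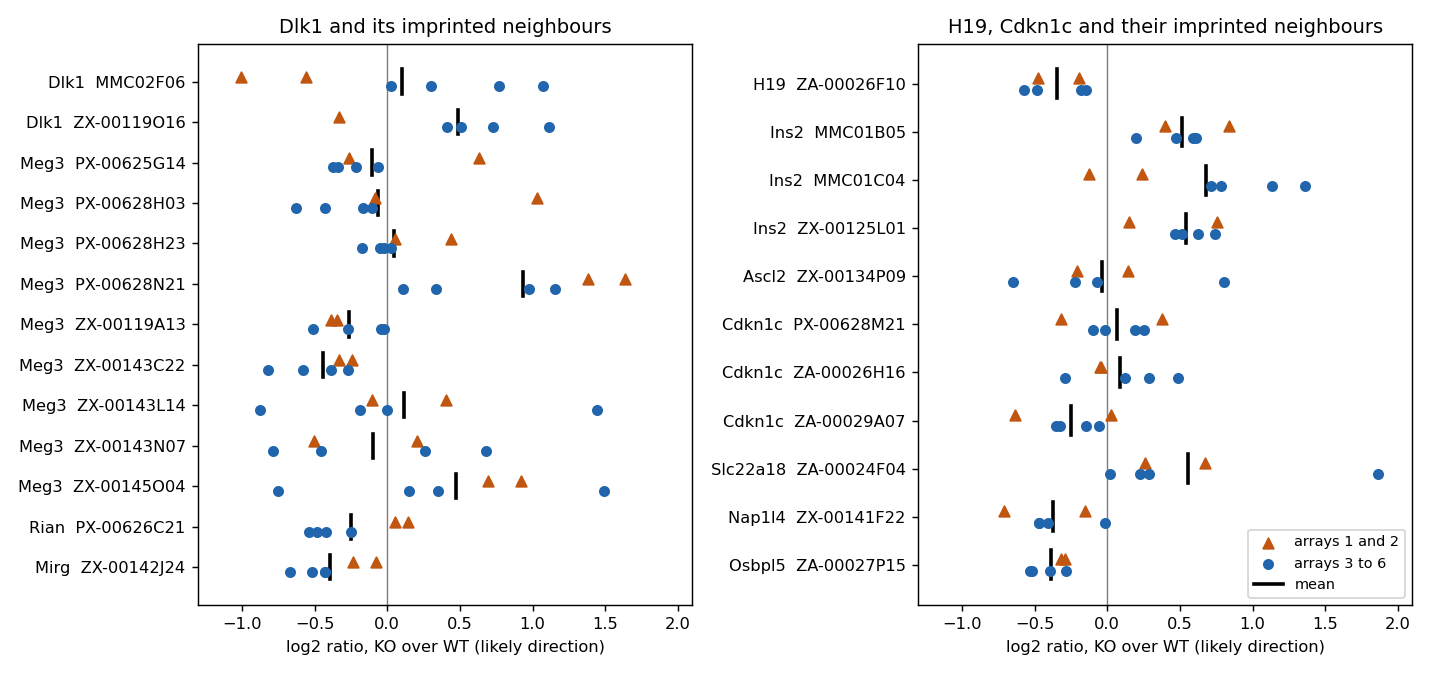
Log2 ratio, knockout over wild type in its likely direction, on each array (triangles for arrays 1 and 2, circles for arrays 3 to 6, bar for the mean) for Dlk1 with Meg3, Rian and Mirg (left) and for H19 and Cdkn1c with imprinted genes of their region (right). Dlk1 has arrays 3 to 6 above 0 where Rian has them under 0, and the 9 Meg3 probes lie on both sides of 0.

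Among other imprinted genes, 5 of 21 measured had a probe past the threshold, against 8.21% of all genes tested. A gene with more probes has more chances to be counted, and Meg3 passed at 1 of 9 and H13 at 1 of 6. Of the other imprinted genes and the pathway genes below, 15 in all passed. With 1 array left out 15 did without array 2, 1 without array 3 and 0 without array 1, 4, 5 or 6. Calls over all tested probes fell alike, from 1166 to 1072 of 20502 without array 2 and 45 of 20625 without array 3. Without array 1, 4, 5 or 6 they numbered 10 to 18. With the array set as a random block 0 of the listed genes passed, and with it as a term 9 did, where 13 and 694 of all 21247 probes did. The lists that follow sort other imprinted genes by the copy read where they are imprinted. That need not be this tissue, as for Ins2, imprinted in the yolk sac, and imprinting in pancreas was not tested. In the list of genes read from the father's copy, 1 of 8 measured passed above 0 (Ins2) and 1 under 0. The gene under 0 was Slc38a4, an amino acid transporter, at -0.54 ± 0.15 with 6 of 6 arrays under 0 (limma adjusted p 0.0287), while its second probe was at -0.51 ± 0.32 (adjusted p 0.0607). In the list read from the mother's copy, 2 of 13 passed under 0 (Osbpl5 and Meg3) and 1 above 0. That was H13, a protease of the endoplasmic reticulum membrane, at 0.89 ± 0.43 at 1 of 6 probes that ran from -0.25 to 1.94, and 66.7% of the ratios of the called probe were quotients of small whole numbers. The median of gene means was 0.12 for the first list and -0.12 for the second, and 0.04 over all genes. By array the medians of the first list were 0.16, 0.10, 0.17, 0.07, 0.05 and 0.006 on arrays 1 to 6, and those of the second -0.08, 0.15, -0.25, -0.08, -0.36 and -0.22. The first list lay above the second within 5 of 6 arrays, and under it on array 2. This difference was not tested.

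In insulin and IGF signalling, the pathway on which Igf2 and Grb10 act, 2 of 15 measured genes passed above 0 and 0 under 0, where 3.25% of all genes had a probe past it above 0 and 5.00% under 0. Igfbp2, a secreted protein that binds IGFs, was at 0.46 ± 0.16 (6 of 6 arrays above 0, limma adjusted p 0.0351) at one probe and at 0.28 and 0.35 at the others, neither past the threshold. Grb14, an adaptor related to Grb10, was at 1.15 ± 0.69 (adjusted p 0.0476) at one probe, of whose ratios 66.7% were quotients of small whole numbers, and its other probe was at -0.97. Igf1r, the receptor of the pathway, was at 0.04 ± 0.27 (adjusted p 0.856). The list's median gene mean was 0.04, the same as over all genes.

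In the Gs and cAMP pathway downstream of Gnas, 2 of 11 measured genes passed under 0 and 0 above 0, against 5.00% and 3.25% of all genes. Pde4b, which breaks down cAMP, was at -0.66 ± 0.10 (6 of 6 arrays under 0, limma adjusted p 0.0156). Prkar2a, a regulatory subunit of protein kinase A, was at -0.46 ± 0.17 at 1 of 5 probes, with others up to 0.60. The list's median gene mean was -0.07.

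Among CDK inhibitors and G1 cyclins, the family and partners of Cdkn1c, 2 of 11 measured genes passed above 0 and 2 under 0, against 3.25% and 5.00% of all genes. Cdkn1a, the related inhibitor, passed at both probes, at -0.84 ± 0.36 and -0.74 ± 0.12, with 6 of 6 arrays under 0 at each. Ccnd1 was at -0.57 ± 0.16 at 1 of 2 probes, Cdk4 at 0.51 ± 0.20 at 1 of 9, and Ccnd2 at 0.46 ± 0.19 at 1 of 5. The list's median gene mean was 0.15.

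Of regulators of imprinting and DNA methylation, 2 of 7 measured genes passed above 0 and 0 under 0, against 3.25% and 5.00% of all genes. Dnmt3a, the methyltransferase that lays down imprints in germ cells, had values of 0.83, 1.00, 0.78, 0.67, 0.58 and 0.64 on arrays 1 to 6. All 6 were above 0 and close together, with a mean of 0.75 ± 0.15 (limma adjusted p 0.0173), a ratio 1.68-fold higher in the RNA labelled knockout. Uhrf1, which guides maintenance methylation, was at 0.53 ± 0.24 (adjusted p 0.039) at 1 of 3 probes, with the others at 0.22 and 0.13. The list's median gene mean was 0.11.

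Markers of other cell types were read beside these results, as ratios since levels were not given. Over all genes, 5.00% had a probe past the threshold under 0 and 3.25% above 0, beside which the counts below stand. All 8 measured liver markers had gene means under 0 and 6 of them passed under 0, with a list median of -0.70 and array medians from -0.87 to -0.51. Afp, the fetal liver's main secreted protein, was at -2.06 to -1.90 at 3 of 4 probes (limma adjusted p 0.00141) and at 0.01 at the fourth, Ambp at -0.77, Fgb at -1.12 and -0.92, and Fgg at -1.14. The drop was not of 1 size: Alb, at -0.29 (limma adjusted p 0.0622), and Ttr, at -0.21 and -0.18 (limma adjusted p 0.293 and 0.28), did not pass. As background, fetal liver is rich in H19, Dlk1 and Slc38a4 RNA. The part of liver RNA in the ratios of H19, Dlk1, Grb10 and Slc38a4 was not tested. Mesenchyme markers, from cells that also carry many imprinted growth RNAs, had 1 of 10 past the threshold under 0 (Sparc, -0.31) and 0 above 0, with a median of 0.06 and array medians from -0.03 to 0.30. Acinar markers had 3 of 8 past it under 0 (Spink1 at 1 of 2 probes, Clps at 7 of 9 and Cpa1 at 3 of 3), with a median of -0.17. Pancreatic progenitor factors had 1 of 8 under 0 (Nr5a2), with a median of 0.09. Endocrine markers had 1 of 8 on each side, with a median of -0.06. Pcsk1n passed above 0 at 1 of 2 probes, with the other at -0.52, and Neurog3 under 0 at 1 of 2. Neuronal markers had 2 of 4 above 0 and 1 under 0 (Ncam1 at 2 of 2 probes), with a median of 0.18. Those above 0 were Tubb3 at 1 of 3 probes, which ran down to -0.05, and Elavl4 at 1 of 4, down to -0.02. Erythroid markers had 1 of 6 above 0 (Hba-a1 at 1 of 17 probes), with a median of 8.9e-05. Endothelial and epithelial markers had 0 of 5 and 0 of 4, with medians of -0.05 and -0.04. There the smallest p belonged to Sox7 at -0.32 (limma adjusted p 0.059) and Sox9 at -0.48 (limma adjusted p 0.101).

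The array profiles nearest to those of the members were found by the root mean square difference over 6 arrays, among 15553 or 15554 probes of other genes. For H19 they were probes of Stambpl1, Ankib1, Azi2 and Coa5, at 0.065 to 0.083 in log2, where the median over all compared probes was 0.486. For the Grb10 probe PX-00627I24 they were probes of Rab10, Rab12, Bnip2 and Arpc5, at 0.056 to 0.063, against a median of 0.423. For the Gnas probe PX-00626A17 they were probes of Serpinh1, 4930519H02Rik, Cnpy2 and Morc4, at 0.068 to 0.077, against a median of 0.381. The called Grb10 probe lacked a value on array 4 and was not compared. Gnas was among the 3 members with the smallest p through PX-00632N04 (unadjusted limma p 0.0306). That probe lacked a value on array 5, so PX-00626A17 (unadjusted limma p 0.204) was compared in its place.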

How the data were processed

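RNA from embryonic pancreas was hybridised to 6 arrays with 2 channels each, after linear amplification and indirect labelling, per the label of arrays 1 and 2. The authors' deposited table holds log2 ratios, a base read from its ceiling value, log2 of 100000. No source used here names the scanner, the background correction, the normalization or the dyes, so direction is only likely and signal over background is unknown. Centring was judged from the array medians.

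Ceiling values were set to missing and each array's median was subtracted. Probes measured on 4 or more arrays were fitted against 0 (two-sided) by limma 3.58.1 in R 4.3.3 with lmFit, eBayes and Benjamini-Hochberg adjustment over all probes, at a threshold of 0.05. A probe's gene was taken from the platform annotation where it gave 1 symbol (18388 probes), and 17786 of these were looked up by Entrez ID in RefSeq. The fit was tested on simulated data with noise drawn independently for each array, so without the array sets seen here. It recovered 22.4% of 67 probes changed by 0.5 in log2, 62.7% of 67 at 1.0 and 81.8% of 66 at 2.0. These are far fewer changed probes than the 1166 that passed in the data. The adjustment is stricter where fewer probes change, so recovery in the data may differ. It called 8 unchanged probes beside these, and 0 when nothing was changed. In that setting most changes of 0.5 were missed, and changes of this size or less may be missed in the data too. Figures were drawn with matplotlib 3.10.9.

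Members, lists and tests were chosen with earlier results of these data known. Named genes were all members, up to 4 genes past the threshold in each of 6 lists, smallest p first, and the 4 nearest profiles of the 3 members with the smallest p. In marker lists the same rule named genes, or the 1 of smallest p where none passed. Rian, Mirg, Nap1l4, Slc22a18, Ascl2, Igf1r, Alb and Ttr were named after their values were seen. Alternatives were other centring, normalization, filters, array weights, variance models, probes per gene, array sets, and each array left out.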

Additional observations from a re-analysis of the deposited data

Results flagged for a closer look

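The 12 member probes, the called probes of genes named in the 6 lists and the array medians of those lists, 35 sets of array values in all, were checked for a single outlying array by the gap to its nearest neighbour (Dixon's test). By chance about 1 in 20 sets would have one, and 0 of 35 did.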

How the results depend on the processing

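Direction was kept by 9 of 12 member probes under all 22 other ways of processing in which each was tested. Dlk1 MMC02F06 was at -0.78 on arrays 1 and 2 alone, at -0.12 with the array set as a term, and at -0.0937 to 0.32 with 1 array left out, Cdkn1c ZA-00026H16 was at -0.0488 on arrays 1 and 2 alone, and Grb10 PX-00631O14 was at -0.0433 on arrays 3 to 6 alone; the cause was not tested. All tested probes past the threshold numbered 1791 after scale normalization, 2402 with array weights, 37 against a log2 change of 0.2, 630 with 1 value per gene, 11 on arrays 3 to 6 alone (6393 at an unadjusted limma p under 0.05), 0 on arrays 1 and 2 alone (2953 at an unadjusted limma p under 0.05), 694 with the array set as a term, 13 with it as a random block, and 10 to 1072 with 1 array left out, the highest without array 2, against 1166. Member probes past it numbered 2 after scale or quantile normalization, where H19 joined Grb10, and 0 against a log2 change of 0.2, with 1 value per gene, within either array set or with the set as a random block, and 0 to 1 with 1 array left out. H19 alone passed where values on all 6 arrays were required or 1 probe was kept per gene, which dropped the called Grb10 probe. Genes of the 6 lists past it numbered 23 with array weights, 1 against a log2 change of 0.2, 7 with 1 value per gene, 9 with the set as a term, 0 within either set or with the set as a random block, and 0 to 15 with 1 array left out (15 without array 2, 1 without array 3, 0 without array 1, 4, 5 or 6), against 15. Without centring, the median of all probe means lay 0.102 higher and 67.5% of called probes were above 0, against 35.7% with centring, while member means stayed 8 above and 4 under 0. Each ratio compares the 2 RNAs on 1 array, so the fit against 0 is already paired by array, and there is 1 group of arrays. The number of arrays and the unknown signal over background limit every value.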
